A study of Mus musculus with 55 samples.

Results

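The keratin gene family was examined in RNA-seq of BBN963 tumours, and its members were taken as every gene whose symbol is Krt followed by a number and at most 1 letter, which gave 54 of the 47606 genes in each expression table. Keratin-associated protein genes and keratin pseudogenes named as such were outside this rule, and expression played no part in it. By keratin type, 28 members were type I (acidic), 24 were type II (neutral to basic), and 2, Krt87 and Krt88, were given no type. Keratins form the intermediate filaments of epithelial cells. A type I chain pairs with a type II chain, the pairs assemble into filaments, and desmosomes and hemidesmosomes anchor the filaments at the cell surface. Which pair a cell makes follows its kind of epithelium: Krt5 with Krt14 in the basal layer of stratified epithelia, Krt1 with Krt10 in differentiating epidermis, Krt4 with Krt13 in the upper layers of internal mucosae, Krt6 with Krt16 and Krt17 in wounded or hyperproliferative epithelium, and Krt8 with Krt18 in simple epithelia. In bladder epithelium Krt5 marks basal cells and Krt20 marks the umbrella cells of the surface.

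BBN963 is a mouse bladder cancer line that arose from exposure to the carcinogen BBN, and it was grown under the skin of 2 kinds of mice. C57BL/6 (B6) mice have a full immune system, and NSG mice lack T, B and NK cells. The groups were tumours at baseline (4 B6 and 5 NSG libraries), tumours of vehicle-treated mice (6 and 5) and tumours of mice given entinostat, which inhibits the class I histone deacetylases (5 and 5). Every group carried the same line, so no group was free of tumour cells by design. In B6 mice treatment was assigned when tumours reached 200 mm3, entinostat was given in chow at 12 mg/kg, and the entinostat tumours were taken at a volume of 100 mm3. The labels give no collection volume for B6 vehicle and baseline tumours, and no dose or volume for NSG mice, so drug and tumour size cannot be told apart in B6 mice. A sixth B6 entinostat sample was not analysed here. Each B6 library is named below by its mouse number and each NSG library by its label, in which Non-Treatment marks the vehicle group.

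Signals below are the authors' DESeq2-normalized counts, set within each host's table, so levels are compared between groups of 1 host and never between hosts. Depth estimated from the value of 1 read ran from 10.98 M to 51.6 M reads per library, and the lowest was NSG_Entinostat_319, in which 29 of the 54 keratins were listed at 0. B6 vehicle libraries 408 and 414 were the closest B6 pair: their median absolute log2 difference was 0.12 over 11186 genes and 0.14 over 17 highly expressed keratins, against 0.56 over the same keratins for the next closest B6 pair (entinostat 411 and 421). Over these genes the next closest B6 pair, entinostat 411 and 423, differed by 0.17. Libraries 408 and 414 were kept as separate samples, and with their average as 1 library 26 of 28 keratins were called in B6 entinostat against vehicle (24 lower and 2 higher), beside 53.0% of all genes. Summed signal of 4 skeletal muscle markers was 326780 in B6 entinostat 413 and between 80.2 and 10632 in the other 4 B6 entinostat libraries, against 4.18 to 13.5 in B6 vehicle tumours. Urothelial markers, a check of the bladder origin, summed to 21.7 to 437.1 over the untreated B6 tumours and to 177.4 to 1114 over the untreated NSG tumours, whereas 5 general epithelial markers summed to at least 23024 in every untreated tumour. The labels do not say how the samples of a group were separated beyond the mouse numbers, and p-values measure the spread between these libraries.

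The 54 keratins lie in 2 clusters of 27 genes in GRCm38. The type I genes span chromosome 11 from 99232761 (Krt222) to 100269951 (Krt42), and the type II genes span chromosome 15 from 101348315 (Krt80) to 102032026, where the type I gene Krt18 lies beside its partner Krt8. RefSeq listed all 54, with 1 of them, Krt74, annotated as a transcribed pseudogene. Promoter sequences from RefSeq (GRCm38.p6) were matched for 36 of the 54 symbols, giving 37 windows of the 250 bases before a listed transcription start. A listed start need not be the main start of its gene. The windows of the basal pair, the simple pair and Krt10 are shown because these genes responded to different degrees below. Capitals mark an E2 box (CAGGTG or its reverse complement CACCTG, the letters bound by the Zeb and Snai repressors) and the TATA box letters TATAAA, searched on both strands.
Krt5: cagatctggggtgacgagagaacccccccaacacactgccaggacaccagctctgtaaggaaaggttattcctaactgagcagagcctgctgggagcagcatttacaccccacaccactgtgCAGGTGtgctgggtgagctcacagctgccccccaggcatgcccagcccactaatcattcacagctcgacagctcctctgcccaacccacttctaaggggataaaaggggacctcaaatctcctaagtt
Krt14: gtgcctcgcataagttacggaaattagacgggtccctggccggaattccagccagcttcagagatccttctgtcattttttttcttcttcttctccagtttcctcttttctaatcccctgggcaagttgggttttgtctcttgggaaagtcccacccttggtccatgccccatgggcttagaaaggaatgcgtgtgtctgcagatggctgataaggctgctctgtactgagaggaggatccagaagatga
Krt8: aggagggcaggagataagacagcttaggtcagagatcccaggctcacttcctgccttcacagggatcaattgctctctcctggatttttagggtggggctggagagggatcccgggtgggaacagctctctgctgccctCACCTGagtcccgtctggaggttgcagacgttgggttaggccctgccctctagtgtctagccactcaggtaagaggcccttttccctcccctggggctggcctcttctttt
Krt18: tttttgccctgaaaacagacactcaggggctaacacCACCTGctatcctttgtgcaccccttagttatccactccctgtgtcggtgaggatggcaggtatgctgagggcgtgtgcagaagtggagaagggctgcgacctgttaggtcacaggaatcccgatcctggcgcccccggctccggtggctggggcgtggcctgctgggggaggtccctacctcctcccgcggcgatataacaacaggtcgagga
Krt10: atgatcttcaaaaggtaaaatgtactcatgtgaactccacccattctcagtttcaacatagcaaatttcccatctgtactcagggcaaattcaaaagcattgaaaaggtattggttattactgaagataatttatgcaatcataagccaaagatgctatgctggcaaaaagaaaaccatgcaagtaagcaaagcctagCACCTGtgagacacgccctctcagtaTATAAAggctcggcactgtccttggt
The windows lie at chr15:101712906-101713155 on the minus strand for Krt5, chr11:100206031-100206280 on the minus strand for Krt14, chr15:102004343-102004592 on the minus strand for Krt8, chr15:102027966-102028215 on the plus strand for Krt18 and chr11:99389365-99389614 on the minus strand for Krt10. An E2 box starts 128 bases before the listed start in Krt5, 111 bases in Krt8, 214 bases in Krt18 and 52 bases in Krt10. The Krt14 window shown holds none of these letters, and sequence before any other Krt14 start was not searched. Among the 37 keratin windows, 14 (37.8%) held an E2 box, against 17.2% of 32851 promoter windows of all genes. TATAAA was in 17 keratin windows (45.9%) against 12.4% of all. The GC box GGGCGG was in 2 (5.41%) against 32.7%, the AP-1 site TGANTCA in 2 (5.41%) against 6.75%, and the AP-2 site GCCNNNGGC in 5 (13.5%) against 13.7%. These matches describe letters in the window and do not show binding. Only 8 of the 17 highly expressed keratins (group mean of at least 1000) had a window, so the shares do not cover the others.

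In untreated B6 tumours the 54 keratins made up 1.06% to 4.96% of each library's summed signal. Their mean share was 3.31% ± 1.70 (SD, n = 4) at baseline and 2.27% ± 1.18 (SD, n = 6) with vehicle. In B6 entinostat tumours it was 0.0085% ± 0.0068 (SD, n = 5), and no library exceeded 0.0194%. NSG tumours held 0.983% ± 0.337 at baseline, 0.863% ± 0.269 with vehicle and 0.664% ± 0.040 with entinostat (SD, n = 5 each), and these ranges overlapped. Counting a keratin as detected from 3 reads, 29 to 33 were detected in B6 vehicle tumours and 17 to 22 in B6 entinostat tumours, against 29 to 34 and 24 to 42 in the corresponding NSG groups. These counts were not matched for depth. Estimated depth was 18.2 M to 36.5 M reads in B6 vehicle libraries and 13.1 M to 26.2 M in B6 entinostat libraries. Across all 30 libraries, 12 keratins were detected in every library and 4 in none.

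**Figure D1:**
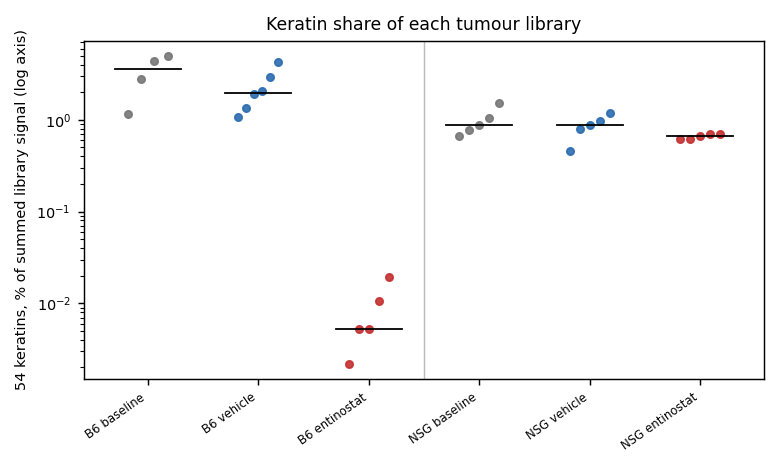
Share of the summed library signal taken by the 54 keratins, in percent on a log axis, for each of the 30 libraries by host and group (points, libraries; bars, medians). The 5 B6 entinostat libraries lie at or below 0.0194%, and every other library lies at or above 0.458%.

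The first comparison asked how keratin expression differed between entinostat and vehicle tumours in immunocompetent mice. Every tested keratin of the basal, activated, mucosal and epidermal classes and 6 of the 7 simple and transitional keratins were lower with entinostat. The log2 changes ran from -9.55 to -10.12 for the 3 basal keratins and from -1.67 (Krt80, not called) to -5.92 for the simple and transitional keratins, and 2 keratins of low signal, Krt83 and Krt222, were higher. A filter kept the 28 keratins with a signal of at least 10 in at least 4 libraries. Of these, 25 fell, 2 rose and 1 (Krt80) was not called (limma, adjusted p below 0.05 over all 17053 genes tested). Over all genes tested, 26.2% were called lower and 29.9% higher (56% in all). The median log2 change was -5.45 over the 28 keratins and -0.01 over all genes. Krt32 and Krt42 were listed at 0 in all 5 entinostat libraries, so no fold is given for them, and without them the median over the other 26 was -5.48 with 23 lower. The groups did not overlap for 19 keratins that were lower and 2 that were higher, where 15.8% and 19.5% of all genes were separated in those directions. Type I and type II keratins had medians of -5.46 (15 tested) and -5.44 (13 tested). The other 26 keratins did not pass the filter. Of the 25 that fell, 15 passed it only through the untreated libraries and 10 would also have passed on the entinostat libraries, so these counts and medians describe the tested keratins and are no support by themselves.

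The same B6 tumours differed in their markers of other cell types. The 5 epithelial markers all fell, and their summed signal was 26688 to 43664 with vehicle and 948.8 to 1838 with entinostat, with none at 0. All 5 fibroblast markers rose (sums of 924.6 to 298810 with vehicle and 598520 to 938950 with entinostat), as did all 5 macrophage markers (3105 to 25470, then 84085 to 129410), all 4 endothelial markers (622.9 to 16778, then 9458 to 14940) and all 4 skeletal muscle markers. In bulk tumours, fewer keratin-making cells and less keratin RNA per cell cannot be told apart. How much of each keratin's fall these markers account for was not tested.

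**Figure D2:**
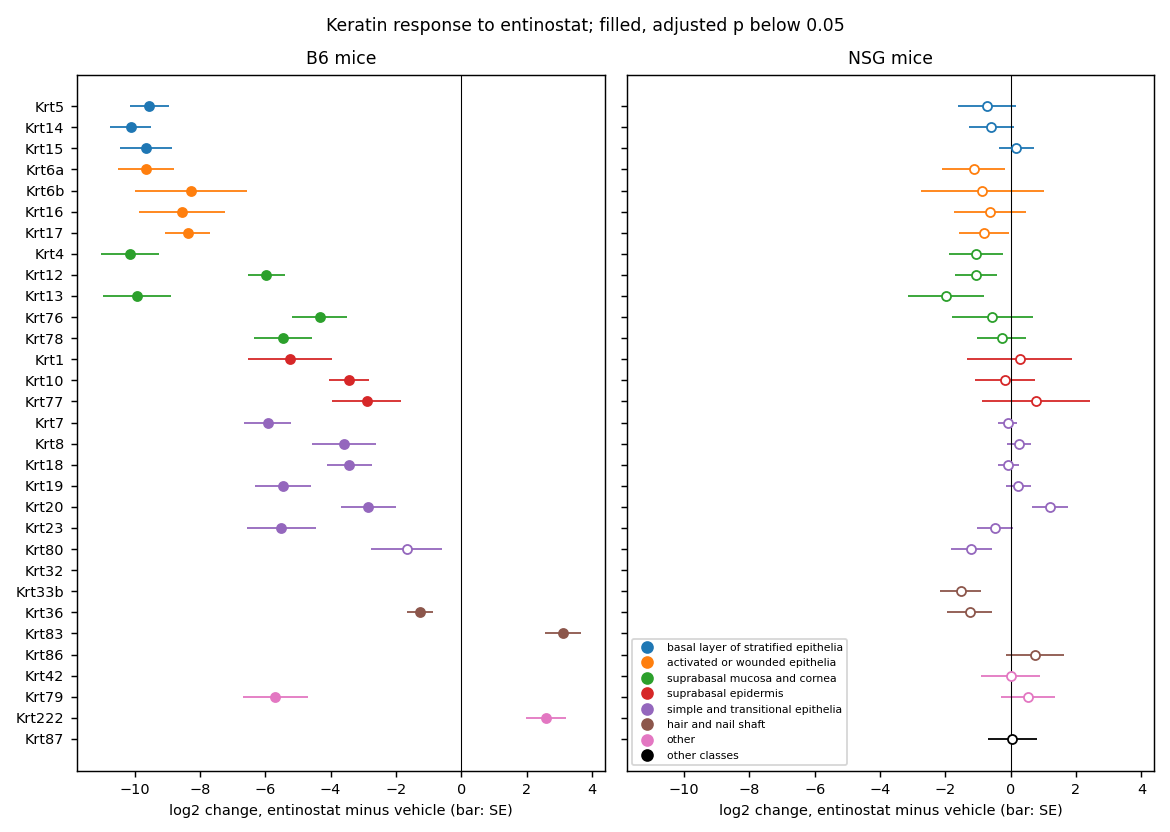
Log2 change of each tested keratin, entinostat minus vehicle, in B6 (left) and NSG mice (right), with standard errors as bars, colours for the keratin class and filled points for an adjusted p below 0.05. Krt32 and Krt42, listed at 0 in every B6 entinostat library, are left out of the left panel. In B6 mice the points run from -10.14 (Krt4) to 3.11 (Krt83), and in NSG mice all points lie between -1.97 and 1.21 and none is filled.

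All 3 keratins of the basal layer fell. Krt5, the type II chain of basal keratinocytes (ENSMUSG00000061527, chromosome 15), had signals between 33401 and 168752 with a median of 122910.0 in vehicle tumours, and 80.2, 223, 422, 92.4 and 34.9 in entinostat tumours 411, 413, 418, 421 and 423, the order used below. Its highest entinostat value was below its lowest vehicle value, and the log2 change was -9.55 ± 0.60 (SE, adjusted p = 3.04e-08). Krt14, its type I partner (chromosome 11), had signals between 57318 and 392041 with a median of 155454 in vehicle tumours. In entinostat tumours Krt14 was at 88.4, 374, 257, 131 and 27.2. The groups were again fully separated, with 413 highest and 423 lowest, and the log2 change was -10.12 ± 0.62 (SE, adjusted p = 2.37e-08). Krt15, a type I chain of basal cells that is also known from hair follicle stem cells, was between 2796 and 15774 with a median of 9005 with vehicle and at 9.87, 9.23, 41.8, 9.36 and 0 with entinostat. Entinostat tumour 418 stood above the other 4 and 423 had no read, and the log2 change was -9.65 ± 0.79 (SE, adjusted p = 2.46e-07).

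**Figure D3:**
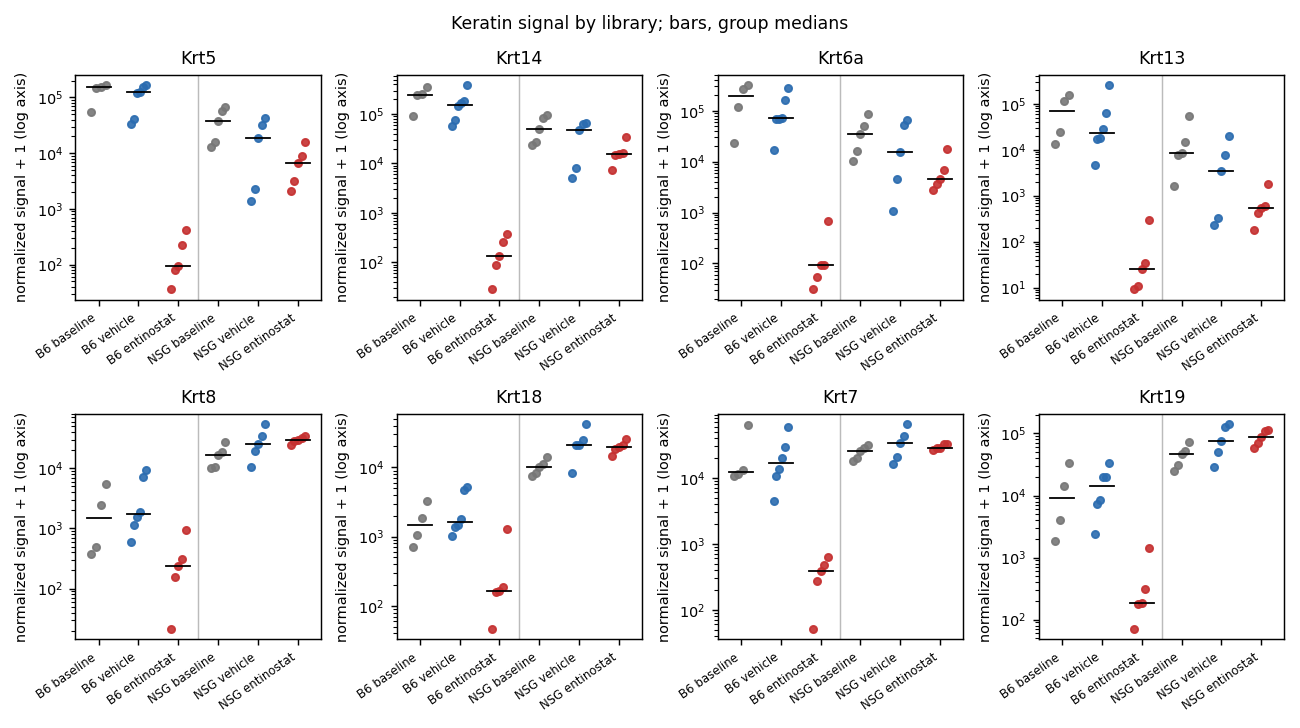
Normalized signal plus 1 on a log axis for 8 keratins in each library, by host and group (points, libraries; bars, medians). B6 and NSG values come from separately normalized tables. In the B6 panels all entinostat points lie below all vehicle points for Krt5, Krt14, Krt6a, Krt13, Krt7 and Krt19, whereas entinostat tumour 418 lies within the vehicle range of Krt8 and Krt18.

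Keratins of activated epithelium, which are switched on in wounds and in squamous tumours, fell in 4 of 4 cases. Krt6a was between 17169 and 280518 with a median of 70836 in vehicle tumours and at 91.8, 697, 29.9, 92.4 and 52.9 in entinostat tumours. Only 413 kept a signal above 100, and the log2 change was -9.65 ± 0.85 (SE, adjusted p = 4.9e-07). Krt6b, a near copy of Krt6a, was between 33.7 and 28998 with a median of 6040.1 with vehicle, where mouse 410 was low, and at 2.32, 95.9, 0, 16.2 and 7.22 with entinostat. The groups overlapped, since 413 was above vehicle tumour 410, and the log2 change was -8.28 ± 1.72 (SE, adjusted p = 0.000889). The file does not show how reads shared by Krt6a and Krt6b were counted, so the split between these genes is uncertain. Krt16, a type I partner of the Krt6 chains, was between 355 and 33339 with a median of 3519.6 with vehicle and at 4.65, 81.6, 0, 22.7 and 12.0 with entinostat. These groups did not overlap, and the log2 change was -8.55 ± 1.31 (SE, adjusted p = 7.6e-05). Krt17, which is induced in wounded skin and in basal-like tumours, was between 1430.4 and 19909 with a median of 14480.0 with vehicle and at 10.5, 74.4, 87.3, 27.6 and 12.0 with entinostat. Its vehicle values were close together apart from mouse 402, and the log2 change was -8.37 ± 0.69 (SE, adjusted p = 2.68e-07).

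Among keratins of the upper layers of mucosae and cornea, 5 of the 6 were tested and all 5 fell. Krt4 was between 3536 and 136510.0 with a median of 8370.2 in vehicle tumours and at 17.4, 21.6, 10.7, 9.73 and 3.61 in entinostat tumours. Its log2 change of -10.14 ± 0.88 (SE, adjusted p = 4.15e-07) was the most negative estimate in the family, within 1 SE of that of Krt14. Krt13, the type I partner of Krt4, was between 4714 and 258153 with a median of 23310.0 with vehicle and at 9.99, 298, 8.14, 33.5 and 24.2 with entinostat. One entinostat tumour, 413, stood well above the other 4 and below every vehicle tumour, and the log2 change was -9.92 ± 1.04 (SE, adjusted p = 2.59e-06). Krt12, the corneal keratin, ranged from 45.5 to 189 with vehicle and 0 to 1.62 with entinostat (log2 change -5.97 ± 0.56, SE), and Krt78 from 26.2 to 389.9 and 0 to 17.1 (-5.44 ± 0.88, SE). Krt76 fell as well, from levels that reached 107.6 in 1 vehicle tumour.

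The keratins of differentiating epidermis were lower but started from lower and more variable levels. Krt1 was between 3.80 and 1765 with a median of 46.6 in vehicle tumours, with mouse 424 far above the rest, and at 0, 1.20, 0, 0 and 3.61 in entinostat tumours, of which 3 had no read. The log2 change was -5.23 ± 1.28 (SE, adjusted p = 0.00295), and the lowest vehicle tumour was only just above the highest entinostat tumour. Krt10, its type I partner, was between 165 and 1486 with a median of 636 with vehicle and at 32.5, 39.6, 55.4, 104 and 51.7 with entinostat. No value overlapped, yet every entinostat tumour kept a signal above 30, and the log2 change was -3.43 ± 0.60 (SE, adjusted p = 0.000242). Krt77 also fell (-2.90 ± 1.07, SE), with both groups containing libraries at 0. Summed signal of 7 epidermal markers, a check for skin in the sample, was 207.6 to 37793 with vehicle and 78.4 to 384.9 with entinostat, where 3 of the 7 were at 0 in all libraries. The part of skin in these keratins was not tested.

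Simple and transitional keratins, which glandular and urothelial cells make, had log2 changes of smaller size than the basal keratins, and 6 of 7 were called lower. Krt7 was between 4394 and 58068 with a median of 16834 in vehicle tumours and at 380.2, 636, 480.4, 269 and 50.4 in entinostat tumours. Both groups were apart and the log2 change was -5.92 ± 0.72 (SE, adjusted p = 9.51e-06). Krt19, a type I chain without the usual tail domain, was between 2411 and 33892 with a median of 14024 with vehicle and at 186, 179.7, 1434, 310.2 and 70.2 with entinostat. Tumour 418 carried far more than the other 4, and the log2 change was -5.46 ± 0.85 (SE, adjusted p = 9.01e-05). Krt8, the type II chain of simple epithelium, was between 600.1 and 9478 with a median of 1718 with vehicle and at 236, 157, 948, 314.7 and 20.5 with entinostat. Here 418 lay within the vehicle range and 423 lay lowest, and the log2 change was -3.59 ± 0.97 (SE, adjusted p = 0.00559). Urothelial markers summed to 519.1 in library 418, against 4.65 to 38.6 in the other 4 entinostat tumours. In untreated B6 tumours they summed to at most 437.1. Their mean log2(signal + 1) was at most 3.32 in any entinostat tumour, so the sum in 418 came almost wholly from a single marker. In vehicle tumours that mean reached 5.36. The part of these markers in the values of 418 was not tested. Krt18, the partner of Krt8, was between 1026 and 5172 with a median of 1623 with vehicle and at 164, 159.6, 1301, 185 and 45.8 with entinostat. The same library 418 overlapped the vehicle group and the other 4 did not, and the log2 change was -3.42 ± 0.69 (SE, adjusted p = 0.000743).

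Krt20, the umbrella cell keratin, was between 38.9 and 2019.8 with a median of 695 in B6 vehicle tumours and at 87.2, 56.4, 85.3, 63.3 and 74.6 in entinostat tumours. Its entinostat values spanned less than those of any other simple keratin named here, vehicle tumour 424 lay below all of them, and the log2 change was -2.84 ± 0.83 (SE, adjusted p = 0.00923). Krt80 was between 33.5 and 4500.4 with a median of 205 with vehicle and at 121, 67.2, 89.5, 29.2 and 72.2 with entinostat. The groups overlapped, 1 vehicle tumour (405) held most of the vehicle signal, and the log2 change of -1.67 ± 1.09 did not pass the test (SE, adjusted p = 0.203, 95% interval -3.99 to 0.64). Krt23, which is known from pancreas and colon epithelium, ranged from 30.4 to 2715 with vehicle and from 0 to 6.39 with entinostat, and its log2 change was -5.50 ± 1.07 (SE).

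Outside these classes, signals were low. Krt79, known from the ducts of the pilosebaceous unit, ranged from 41.3 to 1091 in B6 vehicle tumours and from 1.20 to 10.7 in entinostat tumours (-5.69 ± 0.999 on the log2 scale, SE). Krt42 was 2.10 to 85.0 with vehicle and 0 in every entinostat tumour. Of 14 keratins of the hair and nail shaft, 3 were tested: Krt32 fell to 0 in all entinostat libraries, Krt36 fell (-1.26 ± 0.40, SE) and Krt83 rose. None of the 9 keratins of the inner root sheath and companion layer passed the filter. The 2 keratins that rose were chosen for mention after their values were seen, and both passed the filter only through the entinostat group, where they were high. Krt83, a hair shaft keratin, was between 0 and 6.61 with a median of 3.38 with vehicle and at 23.5, 31.9, 27.1, 32.8 and 35.9 with entinostat. No entinostat value overlapped the vehicle group, and the log2 change was 3.11 ± 0.55 (SE, adjusted p = 0.000243). The related hair keratin Krt86, which did not pass the filter, had 0 to 3.74 and 2.32 to 12.8, and how reads shared between related hair keratins were counted is not given in the sources used here. Krt222 was between 0.957 and 9.94 with a median of 3.25 with vehicle and at 17.8, 34.5, 40.5, 10.1 and 32.9 with entinostat, and its log2 change was 2.59 ± 0.62 (SE, adjusted p = 0.00253). Both genes were at signals under 41 in every library.

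To compare keratins with the rest of the epithelial RNA, each library was also expressed relative to the mean log2 signal of 20 epithelial genes that are not keratins, among them Cdh1, Epcam and Esrp1. All 20 fell in B6 entinostat tumours, with a median log2 change of -4.59 and a range of -7.41 to -2.60. That range holds the log2 changes of Krt1, Krt7, Krt8, Krt10, Krt12, Krt18, Krt19, Krt20, Krt23, Krt77, Krt78 and Krt79, among others. On this scale 8 keratins were lower, 7 were higher and 13 were not called, against 0.874% lower and 96.2% higher of all genes (97% in all). The scale itself moved the median log2 change of all genes to 4.87. With so many genes called, the adjustment of p-values had little effect. The same 15 keratins had an unadjusted p below 0.05 in limma. The 8 that were lower were the basal keratins Krt5 (-4.67 ± 0.46, SE, adjusted p = 5.11e-09), Krt14 (-5.24) and Krt15 (-4.77), the activated keratins Krt6a (-4.77), Krt16 (-3.68) and Krt17 (-3.49), and the mucosal pair Krt4 (-5.26) and Krt13 (-5.05). No simple keratin was called lower on this scale. Krt18 was higher by 1.45 ± 0.65 (SE, adjusted p = 0.0419), Krt20 by 2.04 and Krt80 by 3.21, while the estimates for Krt7 (-1.04), Krt8 (1.29), Krt19 (-0.58) and Krt23 (-0.63) were not called. Krt10 (1.45), Krt36 (3.62), Krt83 (7.99) and Krt222 (7.47) made up the rest of those called higher. Krt83 and Krt222 passed the filter only through the entinostat libraries, where they were high. Krt4, Krt13, Krt15, Krt16 and Krt36 passed it only through the untreated libraries. The counts on this scale therefore describe the tested keratins and are no support by themselves. In NSG mice the same comparison called 0 of 28 keratins (0% of all genes, and 2 keratins at an unadjusted p below 0.05).

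The makeup of the keratin signal also differed. Of the keratin signal in B6 mice, basal keratins held 52.5% ± 17.2 under vehicle (SD, n = 6) and 13.2% ± 3.39 under entinostat (SD, n = 5). Simple and transitional keratins held 12.0% ± 11.7 and 62.3% ± 17.1, and these ranges (1.05% to 32.5% and 38.6% to 80.6%) did not overlap. Activated keratins held 23.1% ± 7.30 and 12.0% ± 10.3, which overlapped. In NSG tumours simple keratins already held 62.8% ± 30.1 with vehicle and 79.5% ± 12.6 with entinostat (SD, n = 5 each), with overlapping ranges. These shares are of reads and do not correct for transcript length, and they were not tested.

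The second B6 comparison set entinostat tumours against tumours at baseline, when no treatment had been given. It shares the entinostat libraries with the first, so it is not independent of it. Of the 28 keratins tested, 24 were lower, 2 were higher and 2 were not called, where 25.3% of all genes were lower and 29.1% higher (54.4% in all). Krt14 had been at 257685, 90234, 361389 and 239900.0 at baseline (mice 415, 416, 419 and 426), all far above the entinostat values, and its log2 change was -10.71 ± 0.69 (SE, adjusted p = 5.19e-08). Krt5 was at 156166, 54406, 166089 and 146784, with 416 lowest (-9.95 ± 0.67, SE). Krt8 was at 499, 5528, 2444 and 376, which overlapped the entinostat tumours (-2.74 ± 1.07, SE, adjusted p = 0.0418). Krt80, not called against vehicle, fell against baseline (-3.34 ± 1.20, SE, adjusted p = 0.0287). Krt20 (-0.96 ± 0.92, adjusted p = 0.394) and Krt77 (-1.38 ± 1.18, adjusted p = 0.34) did not pass this test.

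Growth without drug was compared between B6 vehicle and baseline tumours. limma called 0 of 28 keratins (0% of 17053 genes), with 2 keratins and 749 genes at an unadjusted p below 0.05. By limma's unadjusted p these were Krt12, at 13.1, 6.77, 46.0 and 34.9 at baseline and between 45.5 and 189 with a median of 122 with vehicle (2.32 ± 0.60, SE, adjusted p = 1), and Krt83 (-1.29 ± 0.59, SE, adjusted p = 1). All 28 keratins overlapped between the groups, where 0.44% of all genes were separated lower and 0.305% higher. The spread within these untreated groups was wide: Krt6b ran from 852 to 106188 at baseline and from 33.7 to 28998 with vehicle, and Krt4 from 5992 to 86410.5 and 3536 to 136510.0. Krt7 at baseline was at 11344, 13376, 10842 and 63520.1, with 426 standing apart, and Krt19 at 1862, 14053, 3997 and 32938. With quality weights for each library, which give less weight to libraries that stand apart, 10 of 28 keratins and 16.2% of all genes were called in this comparison.

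**Figure D4:**
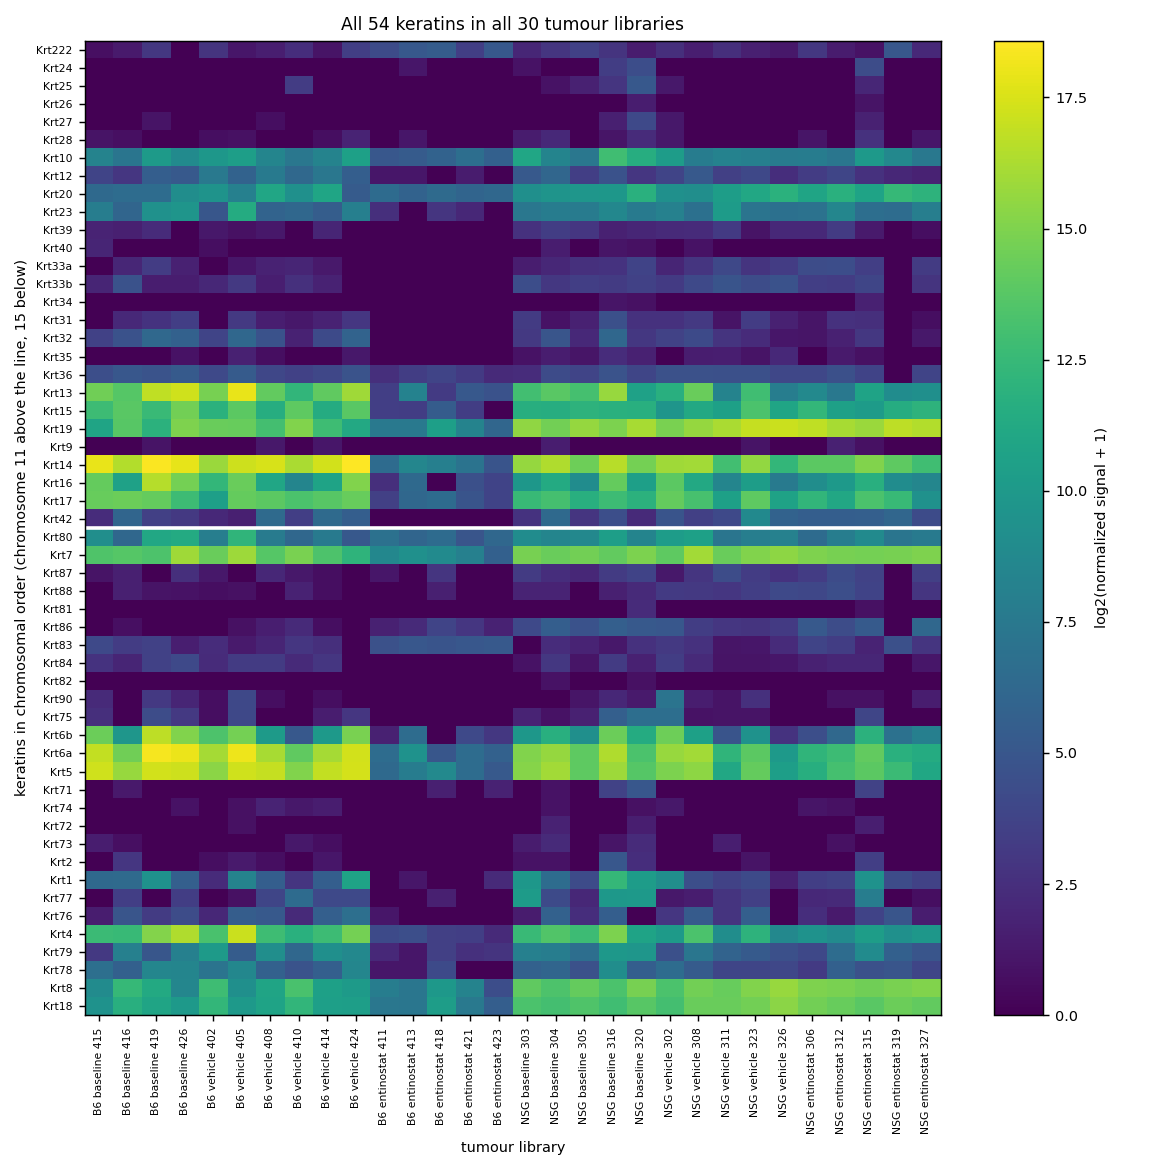
Log2(signal + 1) of all 54 keratins (rows, in chromosomal order) in all 30 libraries (columns, by host and group). The 5 B6 entinostat columns are dark in the rows of Krt5, Krt6a, Krt14, Krt15, Krt16 and Krt17 and brighter in Krt222 and Krt83 than the other B6 columns. Libraries NSG_Baseline_316 and NSG_Baseline_320 and NSG_Entinostat_315 show signal for Krt24, Krt25, Krt27 and Krt71, which are near 0 in most other columns.

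In NSG mice the question was whether entinostat changed keratins in the same tumour line without T, B and NK cells. limma called 0 of the 28 keratins tested and 0% of 17752 genes, with 2 keratins and 1287 genes at an unadjusted p below 0.05, and all 28 keratins overlapped between the groups (0.422% of all genes were separated lower and 0.361% higher). The median log2 change over the 28 was -0.38, and over all genes it was -0.03. The epithelial markers summed to 41333 to 69416 with vehicle and 57433 to 70433 with entinostat.

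Basal keratins in NSG tumours kept high signals under entinostat. Krt14 was at 61637, 64737, 8030.0, 47489 and 4982 in NSG_Non-Treatment_302, NSG_Non-Treatment_308, NSG_Non-Treatment_311, NSG_Non-Treatment_323 and NSG_Non-Treatment_326. It was at 14938, 15649.8, 34069, 16287 and 7385 in NSG_Entinostat_306, NSG_Entinostat_312, NSG_Entinostat_315, NSG_Entinostat_319 and NSG_Entinostat_327. Vehicle tumours NSG_Non-Treatment_311 and NSG_Non-Treatment_326 lay below most entinostat tumours, and the log2 change was -0.60 ± 0.70 (SE, adjusted p = 0.835, 95% interval -2.08 to 0.88). Krt5 was at 31575, 43080.0, 2285, 18451 and 1381 with vehicle and at 3195, 8850.0, 15566, 6615 and 2139 with entinostat. The same pair of vehicle tumours was low, and the log2 change was -0.73 ± 0.90 (SE, adjusted p = 0.842). Krt15 was at 834, 2415, 1481, 10424 and 1939.8 and 5094, 1506, 1173, 2919 and 4073, with NSG_Non-Treatment_323 highest, and its log2 change was 0.17 ± 0.53 (SE).

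Activated and mucosal keratins varied widely among NSG tumours. Krt6a was at 53435, 67265, 4662, 15636 and 1049 with vehicle and at 4481, 6736, 17435, 3640.0 and 2768 with entinostat (-1.14 ± 0.97, SE, adjusted p = 0.773). Krt6b was at 23066, 1516, 26.9, 693 and 5.64 and 21.0, 78.6, 3932, 121 and 258. Vehicle tumour NSG_Non-Treatment_302 and NSG_Entinostat_315 each held far more Krt6b than the rest of their groups, and the log2 change was -0.88 ± 1.88 (SE). Krt16 was at 15479, 2376, 345, 1286 and 194 and 551, 1007, 3297, 527 and 364, and Krt17 at 18989, 9368, 1519.7, 15747 and 1692 and 4743, 2208, 10039, 5902 and 688. Their log2 changes were -0.63 ± 1.11 and -0.81 ± 0.77 (SE), and NSG_Non-Treatment_302 was the highest for both. Krt13 was at 3425, 20261, 323.3, 7639 and 229 with vehicle and 421, 176, 1784, 528 and 599 with entinostat, and its partner Krt4 was at 1137, 10212, 547, 4069 and 411 and 707, 506, 1324, 639 and 899. Krt13 had the most negative estimate in this host (-1.97 ± 1.16, SE, adjusted p = 0.707, 95% interval -4.44 to 0.49), and Krt4 was at -1.06 ± 0.82 (SE).

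Simple keratins kept high signals in every NSG tumour. Krt8 was at 10329, 25096, 19256, 33878 and 54399 with vehicle and 32333, 29574, 24289.9, 28759.5 and 34012 with entinostat. The entinostat values fell within the vehicle range, and the log2 change was 0.26 ± 0.36 (SE, 95% interval -0.51 to 1.03). Krt18 was at 8171, 20999, 21109, 24949.8 and 42120.3 and 25403, 19765, 14709.7, 21282 and 18115 (-0.08 ± 0.32, SE), Krt19 at 29326, 50656, 74567, 126078 and 141705 and 114102, 71255, 57265, 110687 and 87084 (0.24 ± 0.39, SE), and Krt7 at 16392, 65449.5, 21004, 33872 and 42895 and 32849.5, 28613, 26847, 28479.6 and 32456 (-0.10 ± 0.29, SE). For all of these, entinostat tumours were closer together than vehicle tumours. Krt20 was at 638, 579, 1313, 2244 and 3829 with vehicle and 1885, 3554, 1772, 5502 and 4194 with entinostat. It had the highest estimate of the family here (1.21 ± 0.55, SE), which did not pass limma's test (adjusted p = 0.685). Krt80 was at 1255, 1543, 150.1, 247 and 286 and 88.4, 239, 481, 146 and 204 (-1.21 ± 0.63, SE), and the hair keratin Krt33b had the other unadjusted p below 0.05 in limma (-1.53 ± 0.63, SE, adjusted p = 0.682). Krt33b was listed at 0 in NSG_Entinostat_319, the library of lowest depth, and at 6.10 to 13.7 in the other entinostat libraries.

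Against baseline, NSG entinostat tumours again had 0 keratins called, where 0.406% of all genes were called (0.197% lower and 0.208% higher), and 16 of the 28 had an unadjusted p below 0.05, 12 lower and 4 higher, as did 4501 of 17752 genes (25.4%). The lower ones were basal (Krt5, Krt14), activated (Krt6a), epidermal (Krt1, Krt10, Krt77) and mucosal or corneal keratins (Krt4, Krt12, Krt13, Krt78), Krt79 and Krt80, such as Krt13, at 7772, 14804, 8604, 53348 and 1617 at baseline in mice NSG_Baseline_303, NSG_Baseline_304, NSG_Baseline_305, NSG_Baseline_316 and NSG_Baseline_320 (-4.19 ± 1.16, SE, adjusted p = 0.0794), and Krt4, at 6026, 11905, 6779, 31172 and 1725 (-3.31 ± 0.82, SE, adjusted p = 0.0664). Every entinostat tumour lay below every baseline tumour for Krt4. The 4 higher ones were the simple keratins Krt8, at 16714, 10672, 18656, 9993 and 27887 (0.92 ± 0.36, SE), Krt18, at 10109.8, 8196, 11340.0, 7483 and 13965 (0.97 ± 0.32, SE), Krt19, at 45906, 25207, 51342, 31270.2 and 72841 (1.01 ± 0.39, SE), and Krt20, at 609, 804, 855, 931 and 3471 (1.53 ± 0.55, SE). Of these Krt18 was above the baseline range in all 5 entinostat tumours, and the adjusted p-values were 0.14, 0.108, 0.139 and 0.121. Beside these keratins, the 4 mesothelial markers, nearly all of their signal from Msln, summed to 4841 to 19866 at baseline and 26433 to 46033 with entinostat, without overlap. With vehicle they summed to 71373 and 73559 in NSG_Non-Treatment_323 and NSG_Non-Treatment_326, the vehicle libraries highest in Krt8, Krt18 and Krt19, and to 10620.0 to 14982 in the other 3. Of these markers 2 were tested against baseline and neither was called, and Upk3b was at 0 in every baseline and entinostat library. Their part in the result was not tested. Separation without overlap held for 1 keratin in each direction, against 4.19% of all genes lower and 3.97% higher. When only these 2 groups entered the fit, 5 of 28 keratins and 3.33% of all genes were called.

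NSG vehicle tumours shared these baseline libraries, and 3 of 28 keratins were called against baseline, 1 higher and 2 lower, where 7.53% of all genes were higher and 5.5% lower (13% in all). Krt18 rose (1.06 ± 0.32, SE, adjusted p = 0.0431) with NSG_Non-Treatment_302 within the baseline range. Krt77, a keratin of sweat gland ducts and epidermis, was at 1164, 16.8, 3.30, 976 and 989 at baseline and 1.32, 1.83, 5.77, 10.7 and 0 with vehicle (-5.46 ± 1.66, SE, adjusted p = 0.043). Krt79 was at 273, 233, 105, 946 and 875 and 22.4, 156, 59.7, 36.9 and 22.6 (-2.96 ± 0.84, SE, adjusted p = 0.0346). For Krt77, NSG_Baseline_304 and NSG_Baseline_305 did not share the high values of the other 3, and all 28 keratins overlapped between these groups, where 5.64% of all genes were separated lower and 6.44% higher. In the same comparison 3 of 5 fibroblast, 3 of 5 macrophage and 3 of 4 endothelial markers were lower, and 1 of 5 epithelial markers and 2 of the 20 epithelial reference genes were higher. Fibroblast markers summed to 103640 to 228100 at baseline and 30707 to 75999 with vehicle, and their part in the keratin changes was not tested. The number called was 0 when any one of NSG_Baseline_303, NSG_Baseline_305, NSG_Baseline_316 or NSG_Baseline_320 or NSG_Non-Treatment_311, NSG_Non-Treatment_323 or NSG_Non-Treatment_326 was left out, and 5 without NSG_Non-Treatment_302.

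Epidermal keratins were high in some NSG libraries, and follicle keratins were detected in part of these. Krt1 was at 906, 95.2, 17.6, 5255 and 1243 at baseline, 575, 21.0, 11.5, 17.5 and 2.26 with vehicle and 9.94, 11.9, 701, 19.1 and 11.6 with entinostat. Krt10 was at 2029.6, 335, 160.3, 7677 and 3124, 1208, 227, 305.03, 255 and 216 and 219, 153, 1087, 404 and 169. Both were highest in the same library of each group, NSG_Baseline_316, NSG_Non-Treatment_302 and NSG_Entinostat_315. Of the 9 inner root sheath and companion layer keratins, 6 were detected in NSG_Baseline_320, 5 in NSG_Entinostat_315, 3 in NSG_Baseline_316 and at most 2 in each of the other NSG libraries. NSG_Baseline_303, with high Krt1, Krt10 and Krt77, had 0 of the 9, and NSG_Non-Treatment_302 had 1. Krt25 reached 33.1 and Krt71 reached 31.6 in NSG_Baseline_320. The 7 epidermal markers summed to 44220 in NSG_Baseline_316, 16292 in NSG_Non-Treatment_302, 3718 in NSG_Entinostat_315 and 2149 in NSG_Baseline_320, and to 740.8 to 1793 in the other NSG libraries. The 8 hair follicle markers summed to 842.5, 875.8, 663.6 and 927.3 in those 4 libraries, within the range of the remaining ones (162.0 to 1207). The part of overlying skin in these values was not tested.

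The difference between hosts in the response to entinostat was tested directly in 1 fit over both tables, as the B6 log2 change minus the NSG log2 change. Of 25 keratins tested in both hosts, 21 had a more negative change in B6 mice, 0 had a more positive one and 4 were not called, where 19.7% of all 16335 genes were more negative and 23.8% more positive (43.5% in all). Krt32, Krt83 and Krt222 passed the filter in B6 mice only and are not among these 25. Krt83 and Krt222 were the keratins that rose in B6 mice, so the count of 0 does not cover them. The basal keratins differed by -9.81 ± 1.01 (Krt15), -9.52 ± 0.98 (Krt14) and -8.82 ± 1.13 (Krt5), with adjusted p-values of 2.47e-08, 2.38e-08 and 7.22e-07. Krt4 differed by -9.08 ± 1.27, Krt13 by -7.95 ± 1.64 and Krt6a by -8.51 ± 1.35 (SE). The estimates for the simple keratins were smaller in size: Krt7 by -5.82 ± 0.82, Krt19 by -5.70 ± 1.001, Krt20 by -4.04 ± 1.05, Krt8 by -3.85 ± 1.10 and Krt18 by -3.34 ± 0.81 (SE, adjusted p = 0.00168 for Krt18). Krt36 (0.01 ± 0.81), Krt76 (-3.77 ± 1.55), Krt77 (-3.67 ± 2.06) and Krt80 (-0.46 ± 1.33) were not called (adjusted p = 0.996, 0.0502, 0.151 and 0.805). Krt1 (-5.51 ± 2.15, adjusted p = 0.0397), Krt6b (-7.40 ± 2.68, 0.0268) and Krt10 (-3.25 ± 1.13, 0.0217) were called but lost the call in some alternatives. All 20 epithelial reference genes also differed in this direction (median -4.63). The hosts differ in immune cells, and dose and collection volume are stated for B6 mice only, so these cannot be told apart. For vehicle against baseline, limma called 0 of 25 keratins and 0% of genes as different between hosts, with 3 keratins (Krt12, Krt77 and Krt79) and 2721 genes at an unadjusted p below 0.05, and array weights called 4 keratins and 35.7% of genes.

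Across the 10 untreated tumours of each host, partner keratins were positively correlated in 9 of 10 relations, all but Krt1 with Krt10 in B6, and Krt8 was negatively correlated with Krt14 in both hosts and with Krt6b in NSG (adjusted permutation p of Pearson's r below 0.05). In all 14 relations were computed on log2 signals, with 100000 permutations each. The pairs that are not partners set only Krt8 against Krt14 or Krt6b. Stratified keratins that are not partners were not paired with each other, so the positive correlations are not shown to be particular to partners. For Krt5 and Krt14, Pearson's r was 0.90 (permutation p = 5e-04, adjusted 0.000875) and Spearman's rho 0.87 (p = 0.00197) in B6, and 0.98 (p = 1e-05, the smallest the permutations could give, adjusted 7e-05) and 0.96 (p = 6e-05) in NSG. For Krt8 and Krt18 they were 0.96 (permutation p = 5e-05, adjusted 0.000168) and 0.95 (p = 1e-04) in B6, and 0.93 (p = 9e-05, adjusted 0.00021) and 0.95 (p = 0.00012) in NSG. Without the 2 tumours farthest from the median of the first-named gene of a pair, r for these pairs stayed between 0.81 and 0.98. Krt4 with Krt13 gave r of 0.97 in both hosts (p = 1e-05 and 2e-05, adjusted 7e-05 and 9.33e-05), with rho of 0.96 and 0.98 (p = 6e-05 and 5e-05), and 0.96 and 0.94 without the 2 farthest. Krt6a with Krt16 gave 0.93 and 0.82 (p = 0.00011 and 0.00312, adjusted 0.00022 and 0.00485), with rho of 0.92 and 0.85 (p = 0.00059 and 0.00283), and 0.89 and 0.71 without the 2 farthest.

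Krt1 with Krt10 gave r of 0.95 in NSG tumours (permutation p = 6e-05, adjusted 0.000168, rho 0.85 with p = 0.00281, and 0.90 without the 2 farthest) and 0.56 in B6 tumours (p = 0.0939, adjusted 0.0939, rho 0.48 with p = 0.166, and 0.80 without the 2 farthest). Krt8 against Krt14, which are not partners, gave -0.69 in B6 (permutation p = 0.0292, adjusted 0.0372, rho -0.61 with p = 0.0673, and -0.62 without the 2 farthest) and -0.67 in NSG (p = 0.0337, adjusted 0.0394, rho -0.70 with p = 0.0309, and -0.28 without the 2 farthest). Krt8 against Krt6b gave -0.62 in B6 (permutation p = 0.0533, adjusted 0.0575, rho -0.59 with p = 0.0816, and -0.35 without the 2 farthest) and -0.74 in NSG (p = 0.0138, adjusted 0.0193, rho -0.71 with p = 0.0269, and -0.41 without the 2 farthest). Without the 2 tumours farthest from the median of Krt8 the negative estimates were weaker, least so for Krt8 with Krt14 in B6. Leaving them out narrows the range of Krt8, so how far these relations rested on 2 tumours cannot be told. Within groups, after subtracting each group's mean, r was 0.83 to 0.99 for the partner pairs other than Krt1 with Krt10 and -0.59 to -0.68 for the pairs that are not partners. Without vehicle 414, the close match of 408, r in B6 was 0.91 for Krt5 with Krt14, -0.69 for Krt8 with Krt14 and -0.65 for Krt8 with Krt6b. The libraries share the composition of the tumour as a source of correlation, and this was not tested.

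**Figure D5:**
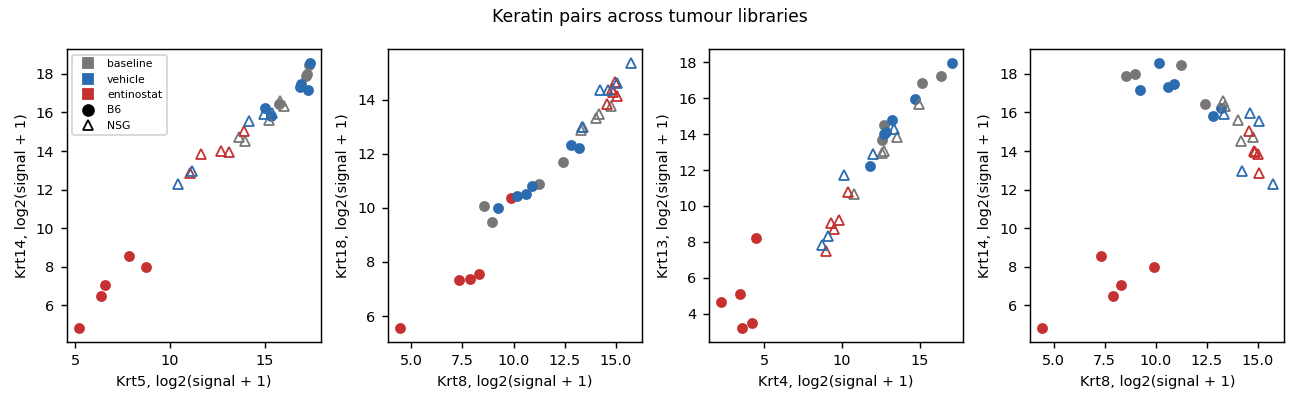
Log2(signal + 1) of 4 keratin pairs in each library, with B6 as filled circles and NSG as open triangles, coloured by group. The B6 and NSG tables were normalized separately. The partner pairs Krt5 with Krt14, Krt8 with Krt18 and Krt4 with Krt13 rise together, with B6 entinostat tumours at the low end, and in the last panel Krt14 falls as Krt8 rises among the untreated tumours of each host.

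Genes that work with keratins were read from lists of the pathway, beside the 26.2% of all genes that were lower and 29.9% that were higher in B6 entinostat against vehicle tumours. Of 17 tested plakins and anchors of the filaments at desmosomes and hemidesmosomes, 14 fell and 2 rose (Macf1 and Pkp2) in that comparison (median -4.95), led by Dsc2, a desmosomal cadherin (-7.45 ± 0.35, SE, adjusted p = 1.79e-09), and Pkp1, a desmosomal plaque protein (-9.86 ± 0.59, SE, adjusted p = 1.92e-08). Plec, Vim, Trp63 and the genes that rose are named after their values were seen. The linker Plec was not called (-0.50 ± 0.25, SE, adjusted p = 0.1). Of 12 tested genes for keratin-associated and filament-bundling proteins, 7 fell, among them Sfn (-6.57 ± 0.34, SE, adjusted p = 4.72e-09) and Krtcap3 (-4.66 ± 0.33, SE), and 1 rose (Krtcap2). Of 12 tested genes for other intermediate filaments, 6 rose and 3 fell. The 2 with the smallest p were Prph, the peripherin of peripheral neurons (3.88 ± 0.40, SE, adjusted p = 2.02e-06), and Lmnb1, a nuclear lamin (-1.72 ± 0.23, SE), and Vim, the vimentin of mesenchymal cells, rose by 4.49 ± 0.76 (SE).

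Among 27 tested regulators of keratin genes, 21 fell and 5 rose in B6 entinostat against vehicle tumours, where 56% of all genes were called. Grhl2, a transcription factor of epithelial identity, had a log2 change of -7.05 ± 0.41 (SE, adjusted p = 1.58e-08) and Ehf, an epithelial ETS factor, one of -7.84 ± 0.53 (SE, adjusted p = 5.1e-08). Trp63, the p63 factor of basal cells, was at -7.36 ± 0.55 (SE). The 5 that rose were Zeb2 (4.05), Snai1 (3.76), Zeb1 (3.52), Lef1 (2.64) and Pparg (2.06), while Snai2 fell (-1.74). Zeb1, Zeb2 and Snai1 rose in the comparison in which the fibroblast markers rose, whose part was not tested. In NSG entinostat against vehicle tumours limma called 0 genes of any of these lists. NSG vehicle against baseline tumours had 1 regulator lower (Tfap2b), 2 keratin-associated genes higher (Krtcap2 and Krtcap3) and 2 other filament genes lower (Nes and Lmnb1), of 29, 12 and 12 tested, where 7.53% of all genes were higher and 5.5% lower.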

How the data were processed

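RNA was measured by RNA-seq with a stranded mRNA kit, per the labels' protocols. The authors' deposited tables hold gene-level signal, DESeq2-normalized counts in 1 table per host, and the submitters' processing notes name STAR, DESeq2 and mm10, with versions not given in the sources used here. The T-cell receptor table and the samples of other assays were not used. Values were set to log2(value + 1). limma 3.58.1 (R 4.3.3, trend and robust) fitted the 3 groups of a host together, on genes that reached 10 in no fewer than 4 (B6) or 5 (NSG) libraries. A joint fit gave host differences. p-values were adjusted over all genes by Benjamini-Hochberg, and called means below 0.05. A fold change on this scale understates the change of low genes. The value of 1 read was taken as the most frequent low value of a library, and detection was set at 3 reads. Correlations used numpy 2.4.6. In simulated data the fit recovered 98.4% of log2 decreases of 8, 92.4% of 4 and 70.3% of 2 for B6 entinostat against vehicle (16582 genes). The changed genes were drawn at random from all genes that passed both filters. These rates do not carry over to keratins, whose log2 SD in B6 vehicle tumours reached 3.74 (Krt6b). The members and lists were chosen with earlier results of these data known. Keratins with a group mean of at least 1000 are given by library, those with at least 50 by group, others by counts, and in each list the 2 called genes with the smallest p. RefSeq (GRCm38.p6) gave positions and promoters. Alternatives were other pseudocounts, filters, normalizations, weights and fits, each library left out, and libraries 408 and 414 averaged, which was chosen after seeing the data.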

Additional observations from a re-analysis of the deposited data

Results flagged for a closer look

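In 8 of 102 combinations of a keratin and a group, 1 library stood apart from the rest of its group by Dixon's test, where chance gives about 1 in 20. In B6 tumours these were Krt5 in baseline 416 (lowest, 54406), Krt7 in baseline 426 (highest, 63520.1), Krt17 in baseline 426 (lowest, 6959.6), Krt20 in baseline 426 (highest, 542) and Krt17 in vehicle 402 (lowest, 1430.4). In NSG tumours they were Krt1 in NSG_Entinostat_315 (highest, 701), Krt10 in NSG_Non-Treatment_302 (highest, 1208) and Krt20 in NSG_Baseline_320 (highest, 3471).

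For 16 of the 17 keratins given by library, the log2 change with entinostat differed between hosts in the test of the difference itself. B6 minus NSG values were -9.81 (Krt15), -9.52 (Krt14) and -8.82 (Krt5) for basal keratins, -9.08 (Krt4) and -7.95 (Krt13) for mucosal keratins, and -8.51 (Krt6a), -7.92 (Krt16), -7.55 (Krt17) and -7.40 (Krt6b) for activated keratins. They were -5.51 (Krt1) and -3.25 (Krt10) for epidermal keratins, and -5.82 (Krt7), -5.70 (Krt19), -4.04 (Krt20), -3.85 (Krt8) and -3.34 (Krt18) for simple keratins.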

How the results depend on the processing

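Counts of called keratins moved by more than 1.5 times in few settings. With no filter, 37 of 50 keratins (98.1% of all genes) were called relative to the epithelial reference in B6 entinostat against vehicle and 0 of 54 (4.75%) in NSG vehicle against baseline. Array weights gave 10 for B6 vehicle against baseline (16.2% of all genes), 2 for NSG entinostat against baseline (12.2%) and 4 for the host difference of vehicle against baseline (35.7%). Fitting only the compared groups gave 5 for NSG entinostat against baseline (3.33%), and a fit without trend and robust variance gave 1 for NSG vehicle against baseline (10.3%). Averaging B6 vehicle 408 and 414 gave 26 (B6 entinostat against vehicle), 25 (against baseline), 21 (host difference), 14 (relative to the reference, beside 96.9% of all genes) and 0 (B6 vehicle against baseline, and its host difference). The cause was not tested. With 1 library left out at a time, the count called ran from 26 to 27 (B6 entinostat against vehicle), 24 to 26 (B6 entinostat against baseline), 18 to 22 (host difference in the entinostat response), 12 to 17 (relative to the reference, B6) and 0 to 5 (NSG vehicle against baseline), and was 0 in every case for the other comparisons. The host difference lost its call for Krt1 with a pseudocount of 5 (adjusted p = 0.119), without a filter (0.0558) and in 10 of 21 leave-one-out fits by limma, for Krt6b in 4 and for Krt10 in 1, without NSG_Entinostat_315 (0.0503). Quantile normalization moved the median log2 change of all genes to -0.16 in B6 entinostat against vehicle.

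Estimates near 0 changed sign in NSG entinostat against vehicle. Array weights gave 0.23 for Krt10, -0.52 for Krt15, 0.22 for Krt16, -0.21 for Krt19 and 0.64 for Krt6b, and quantile normalization gave 0.039 for Krt18 and 0.071 for Krt7. Leaving out 1 library gave -0.86 to 1.41 for Krt1, -0.64 to 0.28 for Krt10, -0.20 to 0.71 for Krt15, -1.31 to 0.27 for Krt16, -0.42 to 0.17 for Krt18, -0.089 to 0.48 for Krt19, -2.29 to 0.65 for Krt6b, -0.34 to 0.16 for Krt7 and -0.054 to 0.55 for Krt8. The host difference of Krt80 ran from -0.996 to 0.41. No paired analysis was possible because the mouse numbers are not shared among the groups compared. Low depth limits keratins of few reads, most of all in NSG_Entinostat_319.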
